A study of Arabidopsis thaliana with 8 samples.

Results

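The afternoon response of the *fhy3* mutant of *Arabidopsis thaliana* was followed in constant red light, as the difference between the array taken at 32 h, in the subjective afternoon, and the mean of the arrays at 24 h and 48 h, both at subjective dawn. These are 3 of the 8 arrays of the study, in which *fhy3-4* and its isogenic wild type, both of the ecotype No-0, were each sampled once at 24, 32, 40, and 48 h. All seedlings, of both genotypes, were grown on Murashige and Skoog medium with sucrose for 7 days of 12 h white light and 12 h dark and then moved to red light, and each sample was a pool of about 100 whole seedlings hybridised to 1 Affymetrix ATH1 array. A probe set is the group of short oligonucleotides that reads 1 transcript, and its signal is a brightness on a linear scale. Probe sets annotated as control, organelle, multi-gene, or unmatched were left out, and 22151 remained. Of these, 12882 reached a signal of at least 100 at 32 h or in the dawn mean and are described here. Among them 6962 are paired with 1 named nuclear gene. The other 5920 are unnamed in the annotation used, so that their nuclear origin was not checked. Of the described probe sets, 352 reached that level at 32 h alone and 227 in the dawn mean alone, the lowest level kept was 100.05 and the highest left out was 99.99.

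FHY3 is a transposase-derived transcription factor that acts with its relative FAR1 downstream of phytochrome A, the far-red light receptor, and also takes part in red light input to the circadian clock. The clock is a set of interlocked feedback loops in which the MYB factors CCA1 and LHY, made around dawn, repress genes of the evening, while the pseudo-response regulators (PRRs), made in turn through the day, repress *CCA1* and *LHY*. Afternoon samples of a rhythmic plant therefore differ from dawn samples for many genes of the clock and its outputs, and samples 24 h apart do not, unless the plants age or the rhythm runs off 24 h.

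There was 1 array per time, so the 24 h against 48 h difference of each probe set was the only measure of spread, and it holds a day of growth as well as technical error. The array mean signals were 402.4, 411.1, and 406.7 in *fhy3* at 24, 32, and 48 h, and 408.6 to 417.5 over the wild type arrays. Over the described probe sets the Spearman correlation was 0.972 between 24 h and 32 h, 0.976 between 32 h and 48 h, and 0.983 between both dawn arrays. *FHY3* itself is paired with no probe set in the annotation used, so the genotype was not checked on its transcript. As markers of the shoot, 5 light-harvesting genes had summed signals of 18000 to 20200 over the *fhy3* dawn and 32 h arrays and 20600 to 21900 in wild type at the same times, whereas 4 markers of dry seed summed to 101 to 135 in *fhy3*, where *M17* alone read 64.7 to 83.5 and the other 3 were close to or below the floor of 20.7 under which signals were raised before taking logs. In a whole seedling, more cells of a type and more RNA per cell cannot be told apart.

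In *fhy3* 43 probe sets differed between afternoon and dawn past a 2-fold margin, and 6 of them went the same way past that margin in wild type. Another 6, all of them rises in *fhy3*, went the opposite way past it in wild type. Of all described probe sets, 0.683% rose and 1.83% fell past it in wild type. The 2-fold rule asks the 32 h signal to lie at least 2-fold above both dawn arrays or at least 2-fold below both. In *fhy3*, 28 probe sets rose (0.217% of those described) and 15 fell (0.116%), in all 43 (0.334%), while the split was 22 and 18 when every array was centred on the same median. With a 1.5-fold margin 188 rose (1.46%) and 83 fell (0.644%), in all 271 (2.1%). Of the 28 rises, 10 had reached the level of 100 at 32 h alone and so had to be higher there, and 6 of the 15 falls had reached it in the dawn mean alone. At any margin, 32 h was above both dawn arrays for 5152 probe sets (40.0%) and below both for 4388 (34.1%), a split that turned to 4181 above and 5205 below with centring.

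The 32 h array differed more from each dawn array than these did from each other, by the median over probe sets. Between single arrays the median absolute difference on the log2 scale was 0.154 for 24 h and 32 h, 0.149 for 32 h and 48 h, and 0.119 for 24 h and 48 h. Between 32 h and the dawn mean, which averages the error of both dawn arrays, it was 0.14, and its 90th percentile was 0.392, next to 0.335 between the dawns. In all, 163 probe sets were at least 2-fold apart at 24 h and 32 h, 105 at 32 h and 48 h, and 88 at 24 h and 48 h. The median signed difference was 0.02, on arrays that the authors had already brought to a common scale.

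**Figure D1:**
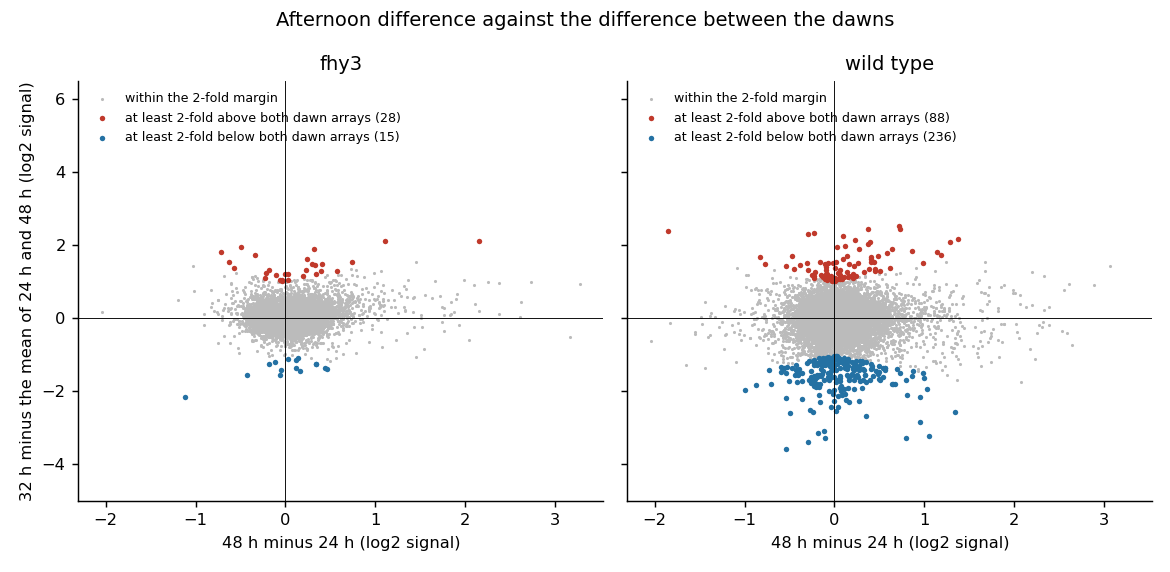
Each point is a described probe set, with the log2 difference of 48 h minus 24 h on the horizontal axis and of 32 h minus the dawn mean on the vertical axis, for *fhy3* on the left and wild type on the right. Red and blue points are at least 2-fold above or below both dawn arrays, 28 and 15 in *fhy3* and 88 and 236 in wild type.

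The size of the differences was also set against the spread by a test. Limma was fitted to log2 signals of all 8 arrays, with the 24 h and 48 h arrays of a genotype as its only replicates, so that the single 32 h array was assumed to vary like the dawn arrays and p-values measure the spread between days and not between separate cultures. No probe set passed at an adjusted p of 0.05 in *fhy3* (0.0% of 12882), where the smallest adjusted p was 0.434, shared by 12 probe sets. At an unadjusted p under 0.05 there were 1023 (7.94%), of which 605 (4.7% of those described) were positive, or 449 of 1000 with centring. In 14 other settings with a filter on signal the adjusted count was also 0, and with no such filter it was 93. The differences of single genes in *fhy3* below are therefore descriptions of these arrays. Their standard errors are those of limma, which pool the 24 h against 48 h spread of both genotypes.

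The spread depended on signal. Among the 3452 probe sets with a mean signal under 200 the median absolute afternoon difference was 0.176 and that between the dawns 0.145, and 14 rose and 7 fell past the 2-fold rule. Among the 1984 with a signal of 1000 or more the medians were 0.114 and 0.096, and 2 rose and 0 fell. Between them, at 200 to 500, 10 rose and 6 fell of 5016, so that most of the rises and falls were of low signals.

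Of the 28 rises 8 had a named gene, and the highest of these was in the glyoxylate cycle. *ICL* (AT3G21720) encodes isocitrate lyase, which lets a seedling turn stored fat into sugar, and its signal in *fhy3* was 473 at 24 h, 3015.0 at 32 h, and 1017.5 at 48 h. The afternoon array was thus nearly 3-fold above the higher dawn, although the dawns themselves differed more than 2-fold, and the log2 difference was 2.12 ± 0.70 (SE). At 40 h, in the subjective night, *ICL* was at 2162.3, and in wild type it read 311, 74.0, and 115 at 24, 32, and 48 h, with the afternoon below both dawns. *GAT1_2.1* (AT1G15040), a glutamine amidotransferase, had closely matched dawns, with signals of 157, 346, and 145 at 24, 32, and 48 h, so that 32 h was 2.29-fold above the dawn mean with a standard error of 0.13 on the log2 scale. It went on to 1368.8 at 40 h, while wild type stayed between 122 and 188 at all 4 times.

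*COR15A*, which encodes a chloroplast protein that protects membranes in the cold, had a difference as large as that of *ICL* but a far wider spread. It read 21.2, 195, and 94.7 at 24, 32, and 48 h in *fhy3*, so that the first dawn was almost at the floor, and the difference was 2.12 ± 1.02. It reached 710 at 40 h, and wild type read 17.4, 70.5, and 61.9. Here 32 h lay above both dawns in both genotypes.

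A further pair of named rises lay close to the threshold. *RING1* (AT5G10380), a RING-type ubiquitin ligase, read 357, 714, and 305 at 24, 32, and 48 h, which placed it just inside the 2-fold rule. *PDF1.4*, a plant defensin, read 61.8, 126, and 60.3, and 372 at 40 h. Both were above both dawns by little more than the 2-fold margin. The unnamed probe set just outside the rule, 258956_at, went the other way and was below both dawns, with 429, 213, and 425.

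The other 3 named rises carry only a locus code. AT1G73480 read 111, 300, and 131 at 24, 32, and 48 h in *fhy3* and 85.3, 329, and 120 in wild type, so that the afternoon was above both dawns in both genotypes, and at 40 h it read 254 in *fhy3* and 155 in wild type. AT1G52070 read 77.7, 200, and 98.0 in *fhy3* but 152, 40.8, and 127 in wild type, with the afternoon high in the mutant and low in wild type. AT5G44440 read 53.4, 113, and 35.8 in *fhy3* and 4.02 at 40 h, and was below the floor on all wild type arrays.

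Among the 20 unnamed rises were those with the widest margins. The probe set 248636_at read 49.8, 208, and 61.9 at 24, 32, and 48 h in *fhy3*, 3.36-fold above the higher dawn, and 81.1, 20.9, and 72.0 in wild type. The probe set 252415_at read 89.8, 290, and 63.6 in *fhy3* and 301, 830, and 83.0 in wild type. The first therefore went opposite ways in the genotypes and the second the same way.

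Of the 15 falls 11 had a named gene, most of them known by a locus code alone. *RALFL27*, of the family of small RALF-like signal peptides, read 111, 36.7, and 106 at 24, 32, and 48 h in *fhy3* and 170, 30.9, and 85.1 in wild type, and it was the 1 fall past the 2-fold rule in both genotypes. AT2G39260 read 470, 172, and 453 at 24, 32, and 48 h and 516 at 40 h in *fhy3*, against 425 to 518 over the 4 wild type arrays. Only the *fhy3* array at 32 h was low for this gene, and its difference of −1.42 ± 0.15 was one of the tightest. AT5G14240 had the same shape, with 690, 289, and 639 at 24, 32, and 48 h and 620 at 40 h in *fhy3*, while wild type lay between 568 and 635.

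Another 4 falls were also lowest at 32 h of the 4 *fhy3* arrays, as the plot of signals by array shows. AT5G57760 read 335, 132, and 295 at 24, 32, and 48 h in *fhy3*, and AT3G02710 read 188, 89.3, and 204. AT2G39420 read 237, 111, and 241, and AT2G23690, with dawns farther apart, read 271, 79.5, and 202. Wild type was below both dawns at 32 h for all of these, at 297 against 467 and 427 for AT5G57760, 132 against 198 and 166 for AT3G02710, 120 against 190 and 308 for AT2G39420, and 189 against 261 and 364 for AT2G23690.

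Falls of a different shape were lower still at 40 h. AT5G10040 read 674, 262, and 756 at 24, 32, and 48 h in *fhy3* and 108 at 40 h, AT4G39675 read 326, 147, and 442 and then 34.6 at 40 h, and AT2G17850 read 360, 178, and 398 and then 51.1. In wild type the 48 h signals of these genes, 255, 254, and 184, were under the 24 h signals of 748, 686, and 405, so that the wild type dawns did not match. AT1G07050 was instead highest at 40 h in both genotypes, at 150 in *fhy3* and 164 in wild type, and it read 91.8, 41.2, and 127 in *fhy3* and was near or below the floor in wild type at the other times.

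**Figure D2:**
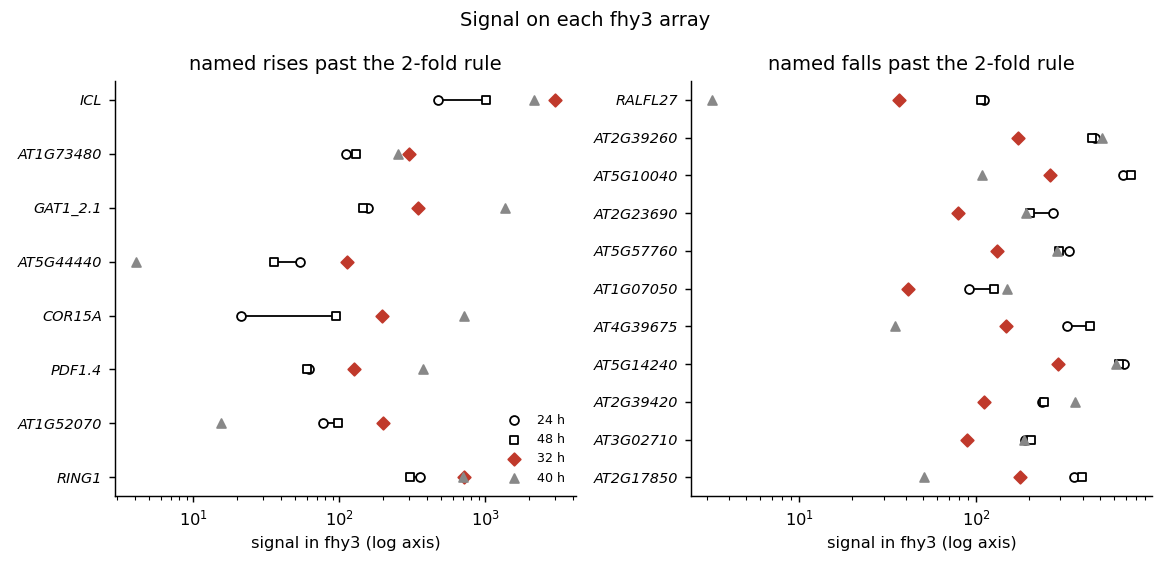
Signal on each *fhy3* array, on a log axis, for the 8 named genes that rose and the 11 that fell past the 2-fold rule, with open circles for 24 h, open squares for 48 h joined by a line, red diamonds for 32 h, and grey triangles for 40 h. The red diamonds lie outside the dawn line for every gene by the rule itself, and the line is longest for *COR15A*, at 21.2 to 94.7.

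The central clock genes that could be identified showed small afternoon differences in *fhy3*, and the dawn genes *LHY* and *CCA1* read higher in the afternoon than at dawn. *RVE8*, also a dawn-phased clock gene in the study, matched no probe set and is not described. *LHY*, which peaks at dawn in a rhythmic plant, read 252, 363, and 224 at 24, 32, and 48 h in *fhy3* and 1877.7, 198, and 1653.1 in wild type. *CCA1*, its close relative, read 151, 245, and 157 in *fhy3* and 776, 182, and 770 in wild type. In both genes the afternoon was above both dawns in the mutant, by 0.61 ± 0.15 and 0.67 ± 0.12 on the log2 scale, and far below both in wild type. At 40 h both were low in the mutant, at 68.7 and 68.3.

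The described PRR genes of the day were highest in the afternoon in both genotypes, when set against the dawns. *PRR7* read 190, 336, and 199 at 24, 32, and 48 h in *fhy3*, and 118, 562, and 139 in wild type, so that the afternoon was highest in both but by less in the mutant. *PRR5* read 179, 294, and 216 in *fhy3* and 173, 310, and 219 in wild type, nearly the same values. *TOC1*, the PRR of the evening, read 418, 340, and 426 in *fhy3*, with the afternoon lowest, and 216, 250, and 239 in wild type. *PRR9* stayed under the level of 100 and is not described.

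Evening genes differed among themselves. *GI*, a clock protein that also controls flowering, read 513, 751, and 635 at 24, 32, and 48 h in *fhy3* and 183, 1127, and 236 in wild type, and the *fhy3* difference of 0.40 ± 0.22 compares with 2.44 in wild type. *LUX*, a member of the evening complex that represses growth and clock genes at night, read 334, 222, and 300 in *fhy3*. In wild type it read 148, 113, and 132, and the afternoon was lowest in both genotypes. *ELF3*, of the same complex, read 667, 528, and 579 in *fhy3* and 623, 636, and 649 in wild type. The third member, *ELF4*, read 83.7, 103, and 130 in *fhy3*, so that its afternoon lay between the dawns. Wild type *ELF4* read 134, 63.1, and 133, a fall past the 2-fold rule. Of the clock outputs, *COR27*, a cold-regulated gene that feeds back on the clock, fell just short of the 2-fold rule with 151, 80.2, and 212, and *CCL*, an output gene, read 3639.2, 4794.4, and 3640.4 in *fhy3* against 1997.5, 7161.9, and 2657.6 in wild type.

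**Figure D3:**
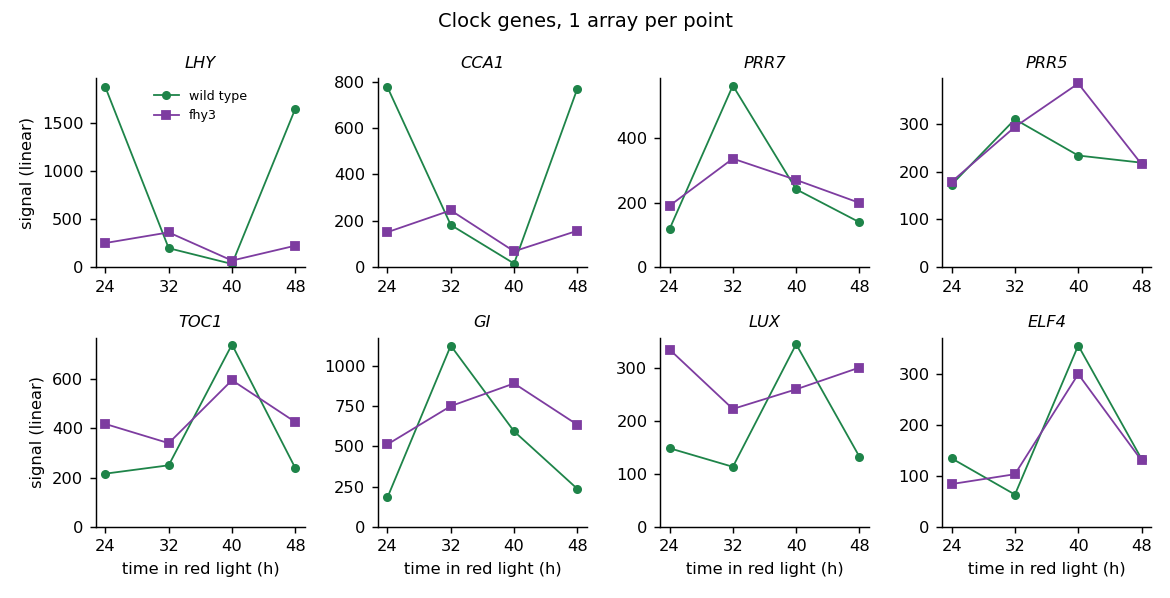
Linear signal of 8 clock genes by time in red light in hours, with wild type in green and *fhy3* in purple and 1 array per point. In *fhy3* *LHY* and *CCA1* are highest at 32 h, at 363 and 245, whereas the wild type peaks are at 24 h and 48 h.

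Genes grouped in lists by function showed where the small differences ran together. For each list the counts are set against all described probe sets, of which 40.0% were above both dawns and 34.1% below in *fhy3*, with a median difference of 0.02, and 38.1% above and 42.6% below in wild type, and since lists and members were chosen with earlier results of these data known the counts are descriptions. The genes of carbon and nitrogen remobilisation, which recycle stored and cellular material when sugar is short, were above both dawns in 14 of 14 described members, with a median of 0.31, and 2 of these, *ICL* and *GAT1_2.1*, passed the 2-fold rule (0.217% of all described). The *ATG8* genes encode the ubiquitin-like coat of autophagosomes, and *ATG8H* read 261, 468, and 365 at 24, 32, and 48 h. The methylcrotonyl-CoA carboxylase subunit gene *MCCA*, for leucine breakdown, read 286, 383, and 247, and *AKINBETA1*, for a subunit of the energy-sensing kinase SnRK1, read 462, 618, and 371. Most members were thus higher by a small margin on a single array, 3 of 14 had an unadjusted limma p under 0.05 (7.94% of all described), and the wild type median was 0.19.

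Sugar transport genes were above both dawns or between them, and starch genes were split. Of 9 described genes for sugar transport and sucrose, nearly all of the SWEET family of sugar carriers, 5 were above both dawns and 0 below, with a median of 0.22. *SWEET16* read 123, 162, and 109 at 24, 32, and 48 h, and *SWEET14* read 78.5, 108, and 78.5, while in wild type *SWEET14* was lowest at 32 h, with 63.8, 32.3, and 68.6. Of 4 starch genes, counted by symbol, 1 was above and 2 below (3 below with centring), with a median of −0.27. Another locus with the symbol *PWD*, AT4G24450, was left out of these counts and of the median. It read 501, 459, and 448, between the dawns, with a difference of −0.05, so the median depends on how loci are counted. *APL3*, for a subunit of ADP-glucose pyrophosphorylase, read 345, 235, and 389, and *SBE2.2*, for a starch branching enzyme, read 879, 616, and 859. The difference of *APL3* was −0.64 ± 0.64, no larger than its standard error. That standard error also holds the spread of the wild type dawns of *APL3*, which were far apart at 107 and 338. The difference of *SBE2.2* was −0.50 ± 0.16. The other 2 encode enzymes of starch breakdown and were nearly level, with 1215.4, 1292.8, and 1251.0 for *PWD* (AT5G26570) and 302, 308, and 335 for *DPE1*.

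Genes of cold and drought were above both dawns in 5 of 6 described members (3 of 6 with quantile normalization) and below in 0. By the median they were also higher at the second dawn than at the first, although *COR47* was slightly lower. The median was 0.42 in *fhy3* and 0.43 in wild type, where 4 of 6 were above both dawns and 1 below. In *fhy3* the median of 48 h minus 24 h was 0.51, as large as that of the afternoon difference. Those with closer dawns were *RD2*, a gene induced by drying, which was nearly level with 1816.6, 1929.0, and 1868.6 at 24, 32, and 48 h, *COR47*, a dehydrin that read 2305.8, 3057.1, and 2248.6, and *LTI30*, a dehydrin that read 979, 1376.2, and 1089.6. *COR47* was high in the wild type afternoon as well, at 3900.4 against 1992.0 and 1979.3, whereas *LTI30* was low there, at 299.5 against 510 and 404.

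Markers of the root were above both dawns in 5 of 5 described members, with a median of 0.57 in *fhy3* and −0.21 in wild type. *EXPA18*, an expansin of root hairs, read 352, 612, and 428 at 24, 32, and 48 h in *fhy3*, and *Prx37*, a peroxidase, read 318, 559, and 443. The summed signal of all 7 markers, to which *PYK10*, a glucosidase of root and hypocotyl, gave most, was 9440, 11000, and 10300 in *fhy3* and 7460, 7290, and 9420 in wild type, and none of the 7 was at the floor in *fhy3*. The part of these markers in the other results was not tested. Cell wall genes, some of them also root genes, were above both dawns in 19 of 37 and below in 9, with a median of 0.13, and *HRGP1*, a hydroxyproline-rich wall glycoprotein, read 687, 1168.4, and 583 with the afternoon highest.

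Genes of the cell cycle and chromatin were below both dawns in 5 of 7 and above in 0, with a median of −0.23. *HTB2*, a histone H2B gene, read 867, 702, and 938 at 24, 32, and 48 h, *HTB1* read 830, 669, and 768, and the Aurora kinase gene *AUR1* read 247, 210, and 248. Both *HTB2* and *HTB1* were also lower in the wild type afternoon, where *HTB2* read 760, 584, and 865. Other histone H2B genes of the list moved less in *fhy3*. *HTB4* was slightly below both *fhy3* dawns, at −0.11, and between the dawns in wild type. *HTB11* lay between the *fhy3* dawns, at 0.02. None of the 7 had an unadjusted p under 0.05. The 19 reference genes, among them tubulin and ubiquitin-conjugating genes, had a median of −0.03, with 5 above and 9 below.

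Photosynthesis was level. Of 5 light-harvesting genes 2 were above and 1 below, of 6 photosystem genes 4 were above and 2 below (1 and 2 with centring), and of 5 genes of the Calvin cycle and photorespiration 2 were above and 1 below, with medians of 0.10, 0.09, and 0.02. *LHCB4.1*, an antenna protein of photosystem II, read 8857.7, 9450.4, and 8471.4 at 24, 32, and 48 h. Of 9 chlorophyll synthesis genes 2 were above and 4 below, with a median of −0.05. No gene of these lists passed the 1.5-fold margin.

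Anthocyanin and phenylpropanoid genes, which make red pigments and UV screens, were lower in the wild type afternoon than at dawn but mostly level in *fhy3*. Of 6 described, 0 were above both dawns and 2 below in *fhy3*, with a median of 0.01. In wild type the median was −1.26, with 5 below both dawns (42.6% of all described) and 3 of these past the 2-fold rule (1.83%). The 6 include *CHI* (AT2G43570), which was listed by its symbol and encodes a putative chitinase, not a pigment enzyme. It lay between the dawns in both genotypes, at 0.32 in *fhy3* and −0.49 in wild type, and enters both medians. *UGT78D1*, for a flavonol rhamnosyltransferase, read 156, 79.2, and 163 at 24, 32, and 48 h in *fhy3*, just short of the 2-fold rule, and 178, 24.3, and 309 in wild type. *UGT78D2*, for a flavonoid glucosyltransferase, read 218, 236, and 262 in *fhy3* and 267, 103, and 338 in wild type. The former was below both dawns in both genotypes and the latter in wild type, with its *fhy3* afternoon between the dawns. Limma's test of the difference between genotypes gave adjusted p-values of 0.153 for *UGT78D1* and 0.136 for *UGT78D2*, so that neither difference passed.

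Hormone and defence lists held single genes with wider margins. *GH3.3*, which joins auxin to amino acids, read 112, 207, and 94.3 at 24, 32, and 48 h, and 6 auxin genes had a median of 0.18 with 4 above and 0 below. *IAA29*, an auxin response repressor, read 121, 149, and 216 in *fhy3*, with the afternoon between the dawns, but 110, 512, and 172 in wild type. Of 16 genes listed under jasmonate and defence 6 were above and 5 below, with a median of 0.17. Among the 16, *PDF1A* and *PDF1B* were listed by the symbol prefix of the defensins but encode peptide deformylases. The former lay between the dawns and the latter below both. *JAL34*, a jacalin-like lectin, read 2991.2, 4596.0, and 3152.6, above both dawns. *Hsp70-2*, a chaperone and the 1 described member of the heat shock list, was below both dawns in both genotypes, with 292, 171, and 303 in *fhy3* and 198, 107, and 229 in wild type.

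**Figure D4:**
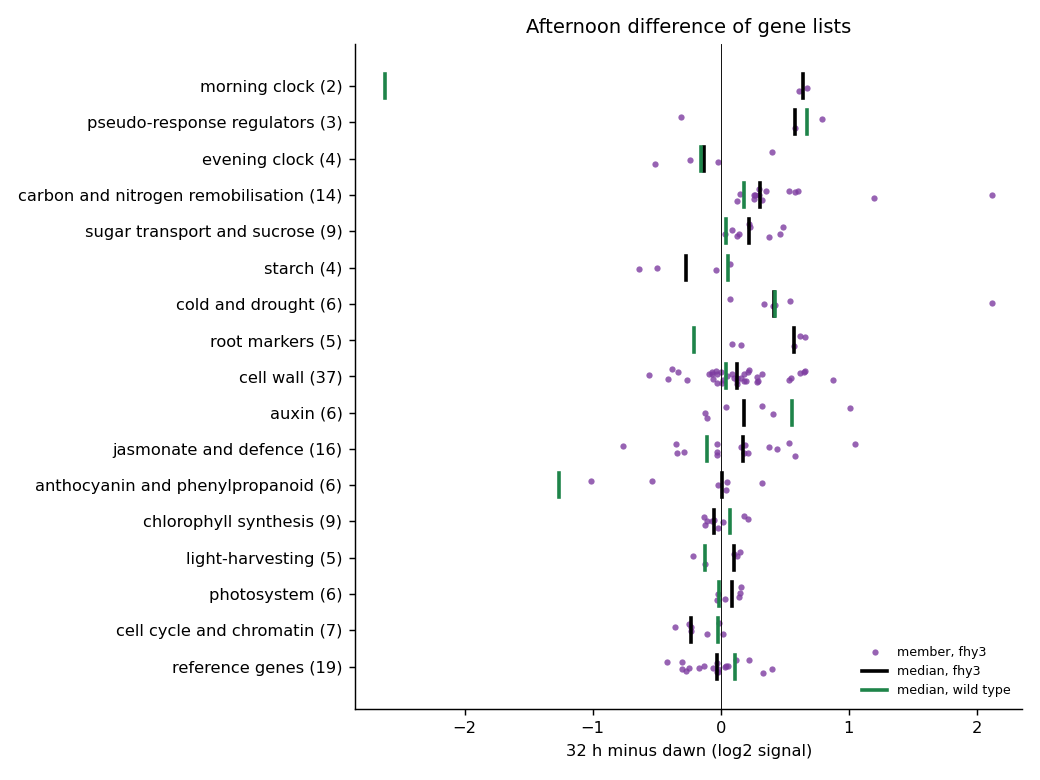
Log2 difference of 32 h minus the dawn mean for the described members of the gene lists named on the axis, with 1 purple point per gene in *fhy3*, black bars for the median in *fhy3*, green bars for the median in wild type, and the number of genes in brackets. The 14 remobilisation genes and the 5 root markers lie to the right of 0 in *fhy3*, and the green bars are farthest from the black for the morning clock and the anthocyanin list.

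In wild type the same contrast was wider. Over the same probe sets, which were chosen on *fhy3* signals, 88 rose (0.683%) and 236 fell (1.83%) past the 2-fold rule, 324 in all (2.52%), and the median absolute difference was 0.243 against 0.145 between the dawns. Limma called 668 probe sets at an adjusted p of 0.05 (5.19%), 229 higher (1.78%) and 439 lower (3.41%), against 0 in *fhy3*.

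Wild type falls lay on either side of the *fhy3* dawns, whereas most wild type rises were also higher in the *fhy3* afternoon, by less. Of the 236 wild type falls, 1 passed the 2-fold rule the same way in *fhy3* (0.424%), 100 were below both dawns (42.4%) and 95 above both (40.3%), next to 34.1% and 40.0% of all described probe sets. Their median was −1.44 in wild type and −0.02 in *fhy3*. Of the 88 wild type rises, 5 passed the rule in *fhy3* (5.68%), 66 were above both dawns (75.0%) and 10 below (11.4%), with medians of 1.38 in wild type and 0.34 in *fhy3*. Across all described probe sets the Pearson correlation of the 2 differences was 0.199 and Spearman's 0.233, a description across genes, which are not independent and share the array platform.

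Read from the side of *fhy3*, its rises lay above and below the wild type dawns in shares close to those of all described probe sets. Of the 28 rises, 12 were above both wild type dawns, 11 below both, and 5 between them, next to 38.1% above and 42.6% below overall. Of the same 28, 5 passed the 2-fold rule upwards in wild type (17.9%, next to 0.683% overall) and 6 downwards (1.83% overall). Of the 15 falls, 1 also passed the rule in wild type (6.67%, next to 1.83% overall), 9 were below both wild type dawns, 0 above, and 6 between. For the falls the wild type median was −0.43, against −1.36 in *fhy3*.

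The difference between the genotypes was itself tested with limma, as the *fhy3* afternoon difference minus that of wild type. It passed at an adjusted p of 0.05 for 18 probe sets (0.14%), all of them positive (25 of 28 with centring), with differences of 2.04 to 4.29 on the log2 scale and adjusted p-values of 0.0468 to 0.0473. At an unadjusted p under 0.05 there were 1944 (15.1%). Each of the 18 had fallen past the 2-fold rule in wild type. In *fhy3* 14 had a positive difference and 4 a negative one, and 13 were above both *fhy3* dawns. *LHY* and *CCA1* were among them, with differences of 3.76 ± 0.21 and 2.76 ± 0.17 and an adjusted p of 0.0468 each. The count depended on the settings and the dawn arrays. It was 0 with quantile normalization, with a signal filter of 50, and with a floor at 20% of the mean, and it was 0 without the *fhy3* 24 h or the *fhy3* 48 h array, 298 without the wild type 24 h array, and 220 without the wild type 48 h array.

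**Figure D5:**
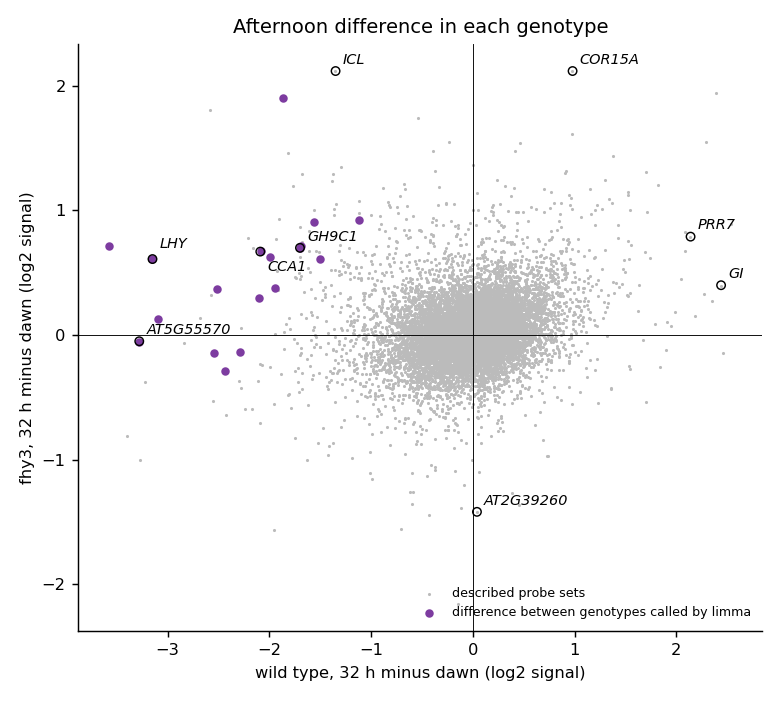
Log2 difference of 32 h minus the dawn mean in *fhy3* on the vertical axis against wild type on the horizontal axis, with 1 grey point per described probe set. The 18 purple points, for which limma called the difference between genotypes, all lie at the left, with wild type differences below −1, and named genes are circled.

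The called probe sets with a named gene took 2 shapes in the mutant. *GH9C1* (AT1G48930), a family 9 glycosyl hydrolase of cell walls, read 221, 366, and 231 at 24, 32, and 48 h in *fhy3* and 160, 52.1, and 180 in wild type, so that the mutant was highest and wild type lowest in the afternoon. AT4G37900 read 70.0, 121, and 77.1 in *fhy3* and 67.9, 19.4, and 65.3 in wild type, and AT1G30990 read 128, 201, and 136 in *fhy3* and 119, 41.1, and 114 in wild type. The last 2 had nearly the same dawn signals in both genotypes and parted in the afternoon. AT4G25790 was alike, with 144, 200, and 164 in *fhy3* and 125, 33.6, and 134 in wild type.

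The other shape was flat. AT5G55570 read 158, 142, and 138 in *fhy3* and 384, 38.1, and 358 in wild type. AT4G18810 read 209, 190, and 209 in *fhy3* and 241, 52.1, and 269 in wild type. Neither moved in *fhy3* by more than 0.13 on the log2 scale, against −3.28 and −2.29 in wild type. AT1G52070, a named rise in *fhy3*, lay just beyond the threshold, with a difference of 2.97 ± 0.28 and an adjusted p of 0.0503.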

How the data were processed

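Signals of 8 ATH1 arrays, 1 for each genotype and time, were taken as the authors deposited them. The deposited values are linear intensity summaries per probe set, brought to a common scale across arrays by the authors. MAS5 is named in the submitters' processing notes with no version, D-chip in the study's methods, and which of them gave these values is not settled. Control (64), organelle (87), multi-gene (503), and unmatched (5) probe sets were left out, and 8730 of the others are not listed in the platform table and stay unnamed. Names were brought up to date through the TAIR10.1 RefSeq gene table. Of the clock genes, *LHY*, *CCA1*, *PRR9*, *PRR7*, *PRR5*, *TOC1*, *ELF3*, *LUX*, and *ELF4* were named by matching fitted values to those in the supplementary material within 0.006. The values matched were the means in *fhy3* and in wild type. Where the wild type mean and amplitude listed there were equal within 0.006, the *fhy3* amplitude was matched in place of the wild type mean.

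Signals under 20.7, which is 5% of the mean of 413.5, were raised to it and log2 values taken. Limma 3.58.1 in R 4.3.3 was fitted with 6 coefficients and 2 residual degrees of freedom, with Benjamini-Hochberg adjustment over 12882 probe sets, and was tested on simulated data. The number of arrays limits the precision, and so do low signals. Genes named were up to 12 each of the largest named rises and falls past the 2-fold rule, of which 8 rises and 11 falls qualified, up to 4 of each gene list by size of difference, the clock genes, and the 6 smallest p-values of the difference between genotypes. Further members of lists, and the unnamed probe sets printed, were chosen after their values were seen. Members and lists were chosen with earlier results of these data known. Alternatives concerned the floor, the signal filter, quantile normalization, centring, the fold margin, the limma settings, and each dawn array. No sequence is printed, as none was used here.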

Additional observations from a re-analysis of the deposited data

Results flagged for a closer look

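For 8 genes the afternoon difference itself differed between *fhy3* and wild type by limma's test, as *fhy3* minus wild type on the log2 scale. It was 3.76 for *LHY*, 2.76 for *CCA1*, 3.23 for AT5G55570, 2.4 for AT4G37900, 2.4 for *GH9C1*, 2.32 for AT4G25790, 2.16 for AT4G18810, and 2.11 for AT1G30990. In each, 32 h was below both dawns in wild type, and in *fhy3* it was above both for *LHY*, *CCA1*, AT4G37900, *GH9C1*, AT4G25790, and AT1G30990, within them for AT5G55570, and slightly below both for AT4G18810. Over the alternatives their adjusted p ranged from 0.00926 for *LHY*, at the lowest, to 0.539 for each.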

How the results depend on the processing

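No paired analysis was possible because each group has a single array, and all share replicate number 1. The median difference (−0.019 to 0.025) and the spread between the *fhy3* dawns moved by less than that spread under every alternative run. Under the 2-fold rule, *fhy3* gave 71 probe sets with a signal filter of 50 (45 rises, 26 falls), 80 with no filter (49 and 31), 19 among named probe sets (8 rises), 271 with a 1.5-fold margin (188 and 83), and 3 with a 3-fold margin (2 and 1). Against a single dawn array it gave 105 to 163, with 63 to 140 rises and 23 to 42 falls. Limma called 0 in *fhy3* under each setting with a signal filter and 93 with none.

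The 18 differences between genotypes became 0 with a floor of 20%, a signal filter of 50, or quantile normalization, 1 with an intensity trend, 3 with a filter of 200, 28 with centring, 31 with no floor, 36 with a robust fit, and 546 with no filter. Leaving out single dawn arrays gave 0 to 298, of which the wild type arrays were left out as a choice made after seeing the data. The cause was not tested. The 324 wild type changes became 193 with a floor of 20%, 532, 182, and 720 with filters of 50, 200, and none, 158 among named probe sets, 1272 and 70 with 1.5-fold and 3-fold margins, and 566 to 579 against a single dawn array.

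Some differences changed sign, most of them small, but *OSM34*, *BGLU28*, and *CHI* were at 0.53, −0.40, and 0.32 with both dawns. Without 24 h and without 48 h they were 0.05 and −0.16 for AT5G55570, 0.01 and −0.05 for *XCT*, −0.34 and 0.98 for *CHI*, −0.01 and 0.12 for *HCT*, 0.03 and −0.27 for *RTE1*, −0.02 and 1.08 for *OSM34*, −0.34 and 0.30 for *ELF4*, 0.18 and −0.06 for *TIC*, −0.26 and 0.04 for *HAT2*, −0.32 and 0.07 for *LHCB4.3*, 0.11 and −0.07 for *HPR*, −0.12 and 0.03 for *DPE1*, −1.07 and 0.28 for *BGLU28*, −0.53 and 0.30 for *IAA29*, and −0.22 and 0.02 for *PYE*. Centring gave −0.02 for *HPR* and quantile normalization −0.04 for *PGY1*. Of the alternatives run for the *fhy3* afternoon difference of single genes, 1117 values kept their sign and 17 did not. For the difference between genotypes in single genes, 54 were classed as the same and 53 as weaker. A single array per time, and low signals near the floor, limit every value.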
